A study of Danio rerio with 9 samples.

Results

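The comparison covers the normal development of zebrafish eyes over the 6 h between 30 and 36 hours post fertilization (hpf), read from the arrays titled 36 hpf control and 30 hpf control. These are 2 of the 9 Affymetrix zebrafish arrays of a study of embryonic ethanol exposure. The arrays were chosen by title alone, 1 per stage, and all 15502 probe sets other than the manufacturer's controls were compared. Each array carried total RNA from dissected embryonic eyes of embryos kept at 28.5 °C. The other arrays used beside them were 36 hpf ethanol and 30 hpf ethanol, and the untreated arrays of 24, 27 and 48 hpf. The 27 hpf and 48 hpf ethanol arrays entered only the model over all 9 arrays. The labels state neither strain, genotype and ethanol dose nor how many eyes an array stands for.

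The labels contradict each other for 3 arrays. The array titled 36 hpf control is marked ethanol in its treatment field, while the arrays titled 36 hpf ethanol and 30 hpf ethanol are marked as having had none. The titles match the source names and are followed throughout. Leading values are also given under the alternative label, that is with the array titled 36 hpf ethanol and marked untreated set against the 30 hpf control.

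In this interval the zebrafish retina passes from a dividing neuroepithelium to a tissue that makes neurons. Retinal progenitors are kept dividing by eye field factors and by Notch signalling. Cells that leave the cycle switch on basic helix-loop-helix proneural factors such as atoh7, and ganglion cells are born first, followed by amacrine, horizontal, photoreceptor and bipolar cells, with Müller glia last. In the lens, cells at the equator elongate into fibres that fill with crystallins, build beaded filaments and later lose their organelles.

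Expression values are MAS5 signals, a linear probe set intensity in arbitrary units, and differences are 36 hpf minus 30 hpf on the scale log2(signal + 5). A probe set was considered when the brighter array of the pair lay above its own median, which was 40.5 in 36 hpf control eyes and 36.8 in 30 hpf control eyes. For a probe set that passed through 1 array only, the direction of the difference followed from this rule. With 1 array per stage the pair has no replicate check and no p-value, and a difference of at least 2-fold is a count of size only. Of 8099 probe sets considered, 186 (2.3%) were at least 2-fold higher at 36 hpf and 41 (0.506%) were at least 2-fold lower, so that 81.9% of these calls were higher. The share of higher calls was 59.3% after centring each array on its median and 67.9% after quantile normalization. Counted as 5492 named genes by their brightest probe set, 120 (2.18%) were at least 2-fold higher and 21 (0.382%) at least 2-fold lower, while 51.4% lay above 0 and 48.5% below 0. With the 36 hpf array marked untreated in place of the 36 hpf control, 353 probe sets were at least 2-fold higher and 103 lower, and these held 98 of the 186 and 13 of the 41.

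**Figure D1:**
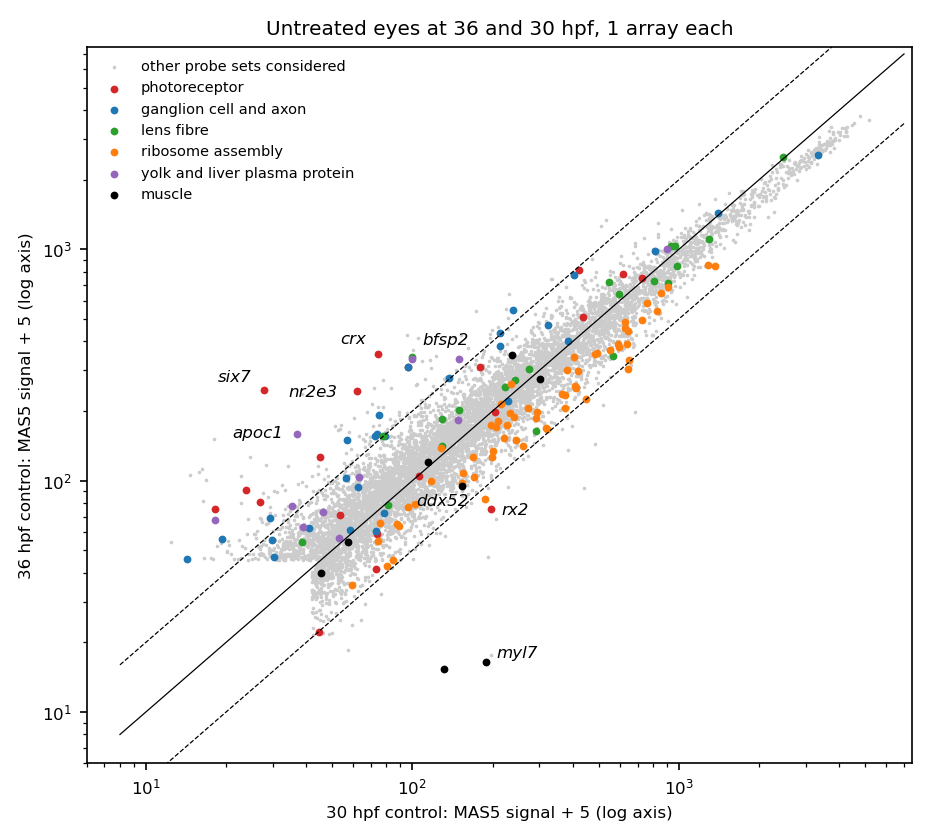
Signal + 5 of each probe set considered, on log axes, in 36 hpf control eyes (vertical) against 30 hpf control eyes (horizontal), 1 array each. The solid line marks equal values and the dashed lines 2-fold differences. Coloured points are genes of 6 lists, with six7, crx, nr2e3 and bfsp2 above the upper dashed line and the muscle gene myl7 far below the lower one.

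The largest higher difference of all probe sets was in six7, a homeobox factor of the sine oculis family that in zebrafish acts in cone photoreceptors and was carried in the progenitor list through its family. Its signal was 240.8 in 36 hpf control eyes and 22.8 in 30 hpf control eyes, a difference of 3.15. In the untreated series it read 2.49, 5.62, 22.8, 240.8 and 485.4 at 24, 27, 30, 36 and 48 hpf, so each stage stood above the stage before it. The six7 difference was 2.97 with the 36 hpf array marked untreated.

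Several photoreceptor transcription factors were higher at 36 hpf, while most opsin and phototransduction genes lay near background on both arrays. Of 42 measured genes of the photoreceptor list, 20 passed the brightness rule, 8 of them at least 2-fold higher (against 2.18% of all genes) and 2 lower (against 0.382%), with a median difference of 0.60 against 0.01 over all genes considered. Members such as six7, rcvrn2, otx5 and thrb passed only through the 36 hpf array, so their direction followed from the brightness rule. Over all 42 measured genes the median was 0.17. The 22 that did not pass included opsins and phototransduction genes whose signal stayed low on both arrays. Transcription factors made up most of the higher members. The homeobox factor crx, which drives photoreceptor genes, had a signal of 346.5 in 36 hpf control eyes and 69.4 in 30 hpf control eyes (difference 2.24). The nuclear receptor nr2e3, which acts in photoreceptor identity, had 239.3 at 36 hpf and 57.2 at 30 hpf (1.97). Both were already higher at 30 hpf than at 24 and 27 hpf, where crx read 16.7 and 19.1 and nr2e3 read 15.6 and 25.6. The Otx family gene otx5, also of the list, stood at 86.1 in 36 hpf control eyes, against 18.8 in 30 hpf control eyes (1.94), and thrb, the thyroid hormone receptor that red cones need, at 76.1 against 21.7 (1.60). Of the phototransduction genes, the recoverin gene rcvrn2 reached 70.4 at 36 hpf and had 13.2 at 30 hpf (2.05), and the transducin gamma gene gngt2a had 121.8 at 36 hpf and 40.0 at 30 hpf (1.50). By contrast the cone transducin gene gnat2 read 17.7 at 36 hpf and 13.7 at 30 hpf, and the rod transducin gene gnat1 read 4.15 and 3.87 at 36 and 30 hpf, all below their array's median. The opsin genes opn1lw1 and opn1sw1 were also near background, at 3.05 and 1.90 in 36 hpf control eyes and 4.74 and 0.545 in 30 hpf control eyes. The blue cone opsin gene opn1sw2 was the brightness rule's exception among opsins, with 36.6 at 36 hpf and 67.8 at 30 hpf (-0.81). It passed only through the 30 hpf array, so its direction followed from that rule. Under the alternative label at 36 hpf the differences were 1.92 for crx, 1.23 for nr2e3, 1.80 for rcvrn2 and 1.13 for otx5.

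Both genes of the list that were at least 2-fold lower are retinal homeobox genes of the rx family, which mark the eye field and early progenitors. Signal of rx2 was 70.3 in 36 hpf control eyes and 193.2 in 30 hpf control eyes (-1.40), and a second rx2 probe set read 19.9 at 36 hpf and 59.4 at 30 hpf (-1.37). For rx1 the signals were 17.2 at 36 hpf and 39.5 at 30 hpf, at the edge of the 2-fold line. Both rx1 and the second rx2 probe set passed only through the 30 hpf array, so their direction followed from the brightness rule. The 30 hpf value of rx2 was the highest of the untreated series, which read 137.1, 76.2, 193.2, 70.3 and 101.3 at 24, 27, 30, 36 and 48 hpf. Measured against the 27 hpf control instead, the differences were -0.11 for rx2 and -0.35 for rx1. With the 36 hpf array marked untreated they were -0.92 for rx2 and -0.12 for rx1. Between the ethanol arrays of 36 and 30 hpf neither gene was lower, with 0.16 for rx2 and 0.54 for rx1.

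The progenitor list as a whole had a median near 0. Of 37 measured members 32 passed the brightness rule, with 20 below 0 (against 48.5% of all genes) and 12 above. Among the 32, 2 were at least 2-fold higher (six7 and meis2b), against 2.18% of all genes. Both passed only through the 36 hpf array. Another 2 were at least 2-fold lower (rx1 and rx2), against 0.382%. Of these rx1 passed only through the 30 hpf array, so its direction followed from the brightness rule. Its median was -0.11 as deposited, -0.23 after median centring and 0.00 after quantile normalization, and it was 0.11 with the 36 hpf array marked untreated. Between the ethanol arrays of 36 and 30 hpf the list median was 0.165, with 23 of the 32 above 0. Among the lower members, sox2, a factor that keeps neural progenitors undifferentiated, had 341.2 at 36 hpf and 563.4 at 30 hpf (-0.71), and the eye field gene six3b had 159.8 at 36 hpf and 286.0 at 30 hpf (-0.82). Signal of pax2a, a gene of the optic stalk and ventral retina that passed only through the 30 hpf array, was 30.0 at 36 hpf and 58.8 at 30 hpf (-0.87). With the 36 hpf array marked untreated these 3 differences were -0.34, -0.12 and -0.45. Other progenitor genes had nearly equal signals. The master eye gene pax6b read 635.6 in 36 hpf control eyes and 591.7 in 30 hpf control eyes, and the cyclin gene ccnd1 read 1470 at 36 hpf and 1560 at 30 hpf. Higher at 36 hpf was foxg1b, a forebrain and nasal retina factor, at 730.1 against 436.4 at 30 hpf (0.74). The TALE homeobox gene meis2b read 146.9 in 36 hpf control eyes and 13.1 in 30 hpf control eyes (3.07), but its 30 hpf value was the lowest of the untreated series, with 54.0 at 24 hpf and 35.4 at 27 hpf.

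Notch pathway genes differed in both directions. Of 20 members that passed, of 26 measured, 1 was at least 2-fold higher (against 2.18% of all genes) and 1 lower (against 0.382%). The list median was 0.17. The Hairy and Enhancer of split genes her2 and her9 were lower. Signal of her2 was 71.7 at 36 hpf and 154.7 at 30 hpf (-1.06), and that of her9 was 262.5 at 36 hpf and 449.2 at 30 hpf (-0.76). The related target hey1 was higher, at 226.7 in 36 hpf control eyes and 110.2 in 30 hpf control eyes (1.01). Receptors and ligands differed by less. The receptor genes notch2 and notch3 had differences of 0.56 and 0.55, the Delta ligand genes dla, dlb and dld had 0.35, 0.39 and 0.17, and the ligand gene jag1b had -0.30. Taking instead the 36 hpf array marked untreated, her2 and her9 had differences of -0.21 and -0.28 and hey1 of 0.78.

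Secreted Wnt antagonists of the Frizzled-related family include sfrp5, the largest lower difference of a named gene outside muscle genes. Its signal was 193.2 in 36 hpf control eyes and 682.1 in 30 hpf control eyes (-1.79), and a second probe set read 138.5 at 36 hpf and 478.8 at 30 hpf (-1.75). The untreated series read 885.2, 940.9, 682.1, 193.2 and 51.5 at 24, 27, 30, 36 and 48 hpf. The 36 hpf array marked untreated read 525.8, a difference of -0.37 from the 30 hpf control.

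Proneural factors were mostly modestly higher. Of 36 measured members 27 passed, 3 of them at least 2-fold higher (against 2.18% of all genes) and none lower. Above 0 lay 21 (against 51.4% of all genes) and below 0 lay 6, and the median was 0.20. The basic helix-loop-helix factor ptf1a, which specifies amacrine and horizontal cells, had a signal of 121.8 in 36 hpf control eyes and 19.6 in 30 hpf control eyes (2.37). It passed only through the 36 hpf array, so its direction followed from the brightness rule. The stress and cell cycle exit gene gadd45ga, expressed in newborn neurons, had 301.2 at 36 hpf and 112.9 at 30 hpf (1.38), and olig2, a factor of neural precursors, had 337.1 at 36 hpf and 143.4 at 30 hpf (1.21). Signal of atoh7, the factor that ganglion cell birth needs, was 514.3 at 36 hpf and 358.2 at 30 hpf, a difference of 0.52. In the untreated series atoh7 read 45.4, 59.5, 358.2, 514.3 and 262.8 at 24, 27, 30, 36 and 48 hpf, so most of its difference lay before 30 hpf and its highest value was at 36 hpf. The amacrine and horizontal cell factor foxn4 (697.3 at 36 hpf and 429.9 at 30 hpf, 0.69) and neurod1 (304.4 and 174.6 at 36 and 30 hpf, 0.79), a factor of later differentiation, were also higher. The proneural genes ascl1a and ascl1b, which act in dividing progenitors, differed by 0.10 and 0.00. Under the alternative label at 36 hpf the difference was 2.27 for ptf1a, 0.67 for atoh7 and 0.90 for foxn4.

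**Figure D2:**
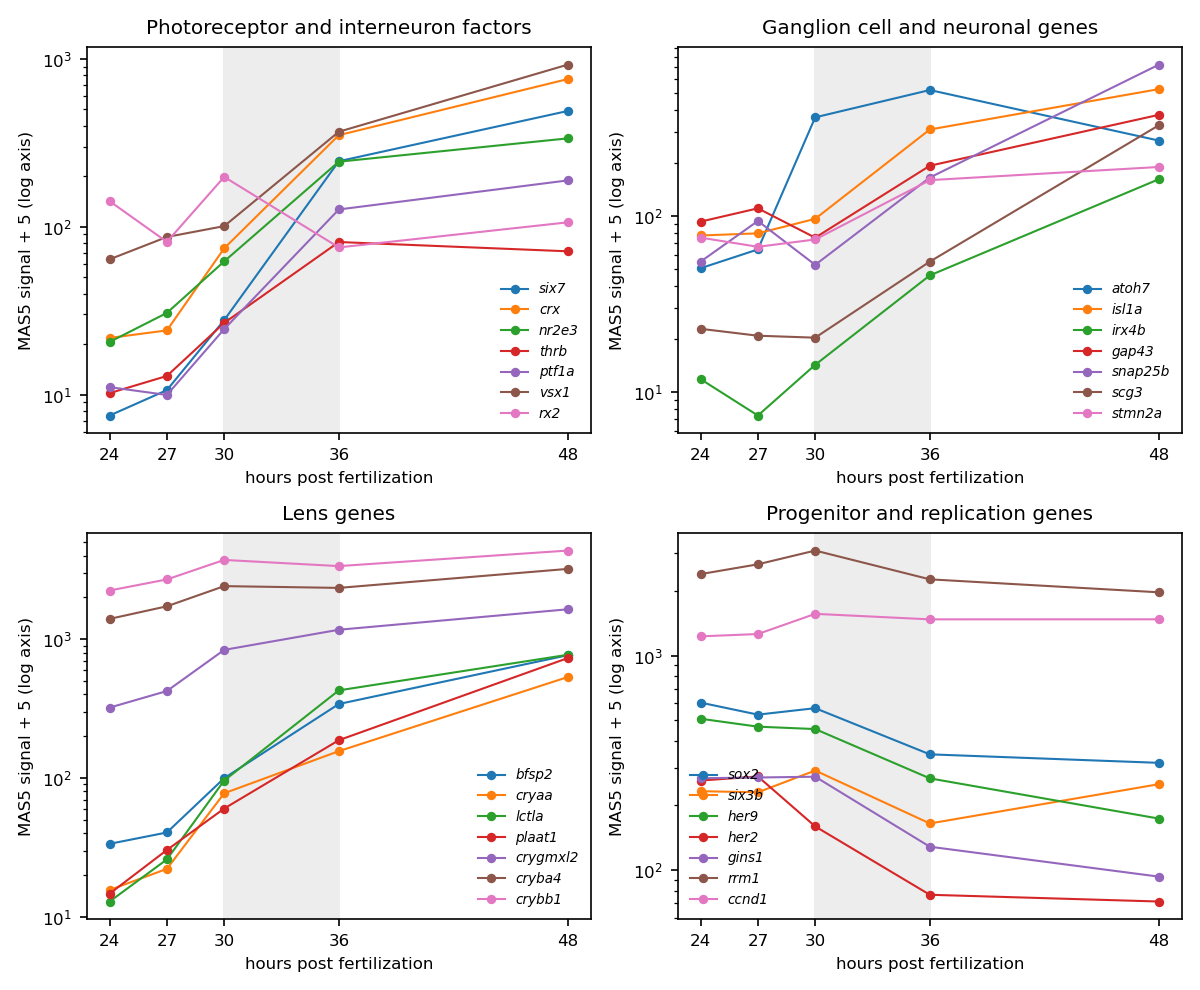
Signal + 5 (log axis) of named genes on the 5 untreated arrays against hours post fertilization, 1 array per stage, with the 30 to 36 hpf interval shaded. Photoreceptor and interneuron factors are steepest within or just before the shaded interval, rx2 and the progenitor and replication genes are lower or nearly level across the shaded interval, and atoh7 peaks at 36 hpf.

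Among members that passed the brightness rule, ganglion cell and axon genes had the highest median of the 26 lists in the control pair, 0.88, and over all 40 measured members the median was 0.60. Of 40 measured members 28 passed, 11 of them at least 2-fold higher (against 2.18% of all genes) and none lower. Above 0 lay 24 of the 28, against 51.4% of all genes. The LIM homeobox factor isl1a, needed for ganglion cell differentiation, had a signal of 304.8 in 36 hpf control eyes and 91.2 in 30 hpf control eyes (1.69). At 24 and 27 hpf it read 72.4 and 74.6, so the step lay within the interval. The Iroquois genes irx4b and irx4a had signals of 40.9 and 51.1 at 36 hpf, against 9.24 and 14.3 at 30 hpf (1.69 and 1.54). Structural and axon growth genes followed. Signal of gap43, a growth cone protein, was 187.8 in 36 hpf control eyes and 70.2 in 30 hpf control eyes (1.36), of the kinesin gene kif5aa 144.3 at 36 hpf and 52.1 at 30 hpf (1.39), and of the collapsin response mediator dpysl3 541.3 at 36 hpf and 233.0 at 30 hpf (1.20). The others at least 2-fold higher were isl2a, stmn2a, inab, dpysl5a and alcama, with differences between 1.02 and 1.25. Among the higher genes irx4b, irx4a and isl2a passed only through the 36 hpf array, so their direction followed from the brightness rule. The ganglion cell factor pou4f2 lay near background on both arrays, at 6.78 in 36 hpf control eyes and 1.74 in 30 hpf control eyes.

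Genes shared by neurons of all kinds differed to a similar extent. Of 46 measured members of the pan-neuronal list 30 passed, 10 at least 2-fold higher (against 2.18% of all genes) and none lower. Above 0 lay 27 (against 51.4%), and the median was 0.83, or 0.65 over all 46. The synaptic fusion gene snap25b had a signal of 160.2 at 36 hpf and 47.7 at 30 hpf (1.65), and the secretogranin gene scg3 had 50.0 at 36 hpf and 15.3 at 30 hpf (1.44). Brain creatine kinase ckbb had 1254 at 36 hpf and 507.8 at 30 hpf (1.30), and the neuronal sodium pump subunit atp1a3a had 94.1 at 36 hpf and 33.6 at 30 hpf (1.36). Of these, scg3 and atp1a3a passed only through the 36 hpf array, so their direction followed from the brightness rule. The early neuronal RNA-binding gene elavl3 differed by 0.54. In whole tissue, more cells of a type and more RNA per cell cannot be told apart.

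Of the ganglion cell and axon genes at least 2-fold higher, gap43, kif5aa, isl2a, dpysl3, inab and alcama had their lowest untreated signal at 30 hpf. Against the 27 hpf control these were under 2-fold, with differences from 0.48 to 0.98. The others, isl1a, irx4b, irx4a, stmn2a and dpysl5a, stayed at least 2-fold higher against it. The pan-neuronal genes snap25b and scg3 were also lowest at 30 hpf, with differences of 0.82 and 1.40 against the 27 hpf control. For gap43 the untreated series read 87.8, 105.4, 70.2, 187.8 and 370.6 at 24, 27, 30, 36 and 48 hpf. With the 27 hpf control in place of the 30 hpf control, the list medians were 0.48 for ganglion cell and axon genes, 0.61 for pan-neuronal genes and 1.42 for photoreceptor genes. With the 36 hpf array marked untreated the medians were 0.79 for ganglion cell and axon genes, 0.88 for pan-neuronal genes and 0.69 for photoreceptor genes, and the isl1a difference was 0.78. Markers of brain outside the eye had a summed signal over 62 genes of 3597 in 36 hpf control eyes and 3443 in 30 hpf control eyes. The other untreated arrays read 4851, 4780 and 3171 at 24, 27 and 48 hpf, and the ethanol arrays 4392 at 36 hpf and 5976 at 30 hpf. Of the 27 genes of the brain list that passed, 14 lay above 0 (against 51.4% of all genes) and 13 below. The median was 0.06 and became -0.06 after median centring and after quantile normalization. The brain list moved with the arrays chosen: its median was 0.53, with 19 of 27 above 0, when the 36 hpf array marked untreated was used, and -0.41, with 20 of 27 below 0, against the 27 hpf control. In the control pair 2 of the 27, barhl2 and gbx2, were at least 2-fold higher (against 2.18% of all genes) and none lower. The list is not one of brain alone, since barhl2 and pax2a were also members of eye lists. The hindbrain gene egr2b was at background on both arrays and the midbrain gene en2a read 31.4 at 36 hpf and 21.0 at 30 hpf. The brain marker gbx2 was higher, at 41.3 in 36 hpf control eyes and 11.5 in 30 hpf control eyes (1.49), and passed only through the 36 hpf array. The part of brain tissue in the neuronal differences was not tested.

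Several amacrine and bipolar cell factors were higher at 36 hpf, and genes used as glial markers differed in both directions. Of 26 measured members of the inner retina list 19 passed, 6 at least 2-fold higher (against 2.18% of all genes) and none lower. The 6 included ptf1a, which passed only through the 36 hpf array. The median was 0.59, or 0.54 over all 26. The bipolar cell homeobox gene vsx1 had a signal of 363.4 in 36 hpf control eyes and 95.9 in 30 hpf control eyes (1.87), and read 921.6 at 48 hpf. The amacrine factor tfap2b had 245.9 at 36 hpf and 78.1 at 30 hpf (1.59), and barhl2, a homeobox gene of amacrine and ganglion cell subtypes, had 341.2 at 36 hpf and 117.8 at 30 hpf (1.50). The glutamate transporter gene slc1a3a and the intermediate filament gene gfap, both used as radial glia markers, were lower, with 130.7 and 87.1 at 36 hpf, against 229.1 and 150.4 at 30 hpf (-0.79 and -0.75). Another glutamate transporter gene, slc1a2b, was at least 2-fold higher, with 368.4 at 36 hpf and 157.2 at 30 hpf (1.20). Taking instead the 36 hpf array marked untreated, the difference was 1.33 for vsx1, 0.69 for tfap2b and 1.04 for barhl2.

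The lens fibre list held 2 genes at least 2-fold higher at 36 hpf, bfsp2 and cryaa, and most of its members differed by less. The cryaa difference was 1.01, at the edge of the 2-fold line. Of its 32 measured genes 21 passed, 2 of them at least 2-fold higher (against 2.18% of all genes) and none lower, with a median of 0.14. The beaded filament gene bfsp2 had a signal of 336.5 in 36 hpf control eyes and 94.8 in 30 hpf control eyes (1.78). Outside the list and picked for their size, the lactase-like gene lctla, whose mouse counterpart is expressed in the lens, had 423.2 at 36 hpf and 90.9 at 30 hpf (2.16), and plaat1, a phospholipase that zebrafish lens cells use to degrade organelles, had 182.3 at 36 hpf and 55.3 at 30 hpf (1.64). All 3 were higher at every later untreated stage, with bfsp2 at 28.6, 35.5, 94.8, 336.5 and 763.6 at 24, 27, 30, 36 and 48 hpf. With the 36 hpf array marked untreated the differences were 1.47 for bfsp2, 1.98 for lctla and 1.08 for plaat1. Lens gap junction genes gja3 and gja8b stayed below their array's median, at 5.64 and 11.7 in 36 hpf control eyes and 8.92 and 14.2 in 30 hpf control eyes.

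Crystallins are the refractive proteins of the lens. The crystallin list had a control pair median near 0, but that median was the value of crybg1a (0.01), with cryl1 (-0.01) beside it. Neither is taken here as a refractive lens protein. The list median therefore does not describe the lens crystallins given below, whose differences ran from -0.15 to 1.01. Of 14 measured genes of the list 7 passed, 1 of them at least 2-fold higher (against 2.18% of all genes). That gene was cryaa, which was at the edge of the 2-fold line and was also counted in the lens fibre list. The median was 0.01 as deposited, -0.11 after median centring and 0.23 after quantile normalization. All 7 lay above 0 with the 36 hpf array marked untreated (median 0.29) and against the 27 hpf control (median 0.65). The alpha crystallin cryaa had a signal of 151.2 in 36 hpf control eyes and 72.7 in 30 hpf control eyes (1.01), and crygmxl2, of the gamma family, had 1166 at 36 hpf and 833.4 at 30 hpf (0.48). Signal of crygs1, which passed only through the 36 hpf array, was 40.59 at 36 hpf and 19.25 at 30 hpf (0.91). The beta crystallins were bright on both arrays, where crybb1 read 3362 at 36 hpf and 3725 at 30 hpf (-0.15), and cryba4 read 2340 at 36 hpf and 2410 at 30 hpf (-0.04). In the brightest 10% of the probe sets considered, 3 of the 7 crystallins among them, the median difference was -0.18 as deposited and -0.01 after quantile normalization, so small differences of bright genes rest on the scaling.

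**Figure D3:**
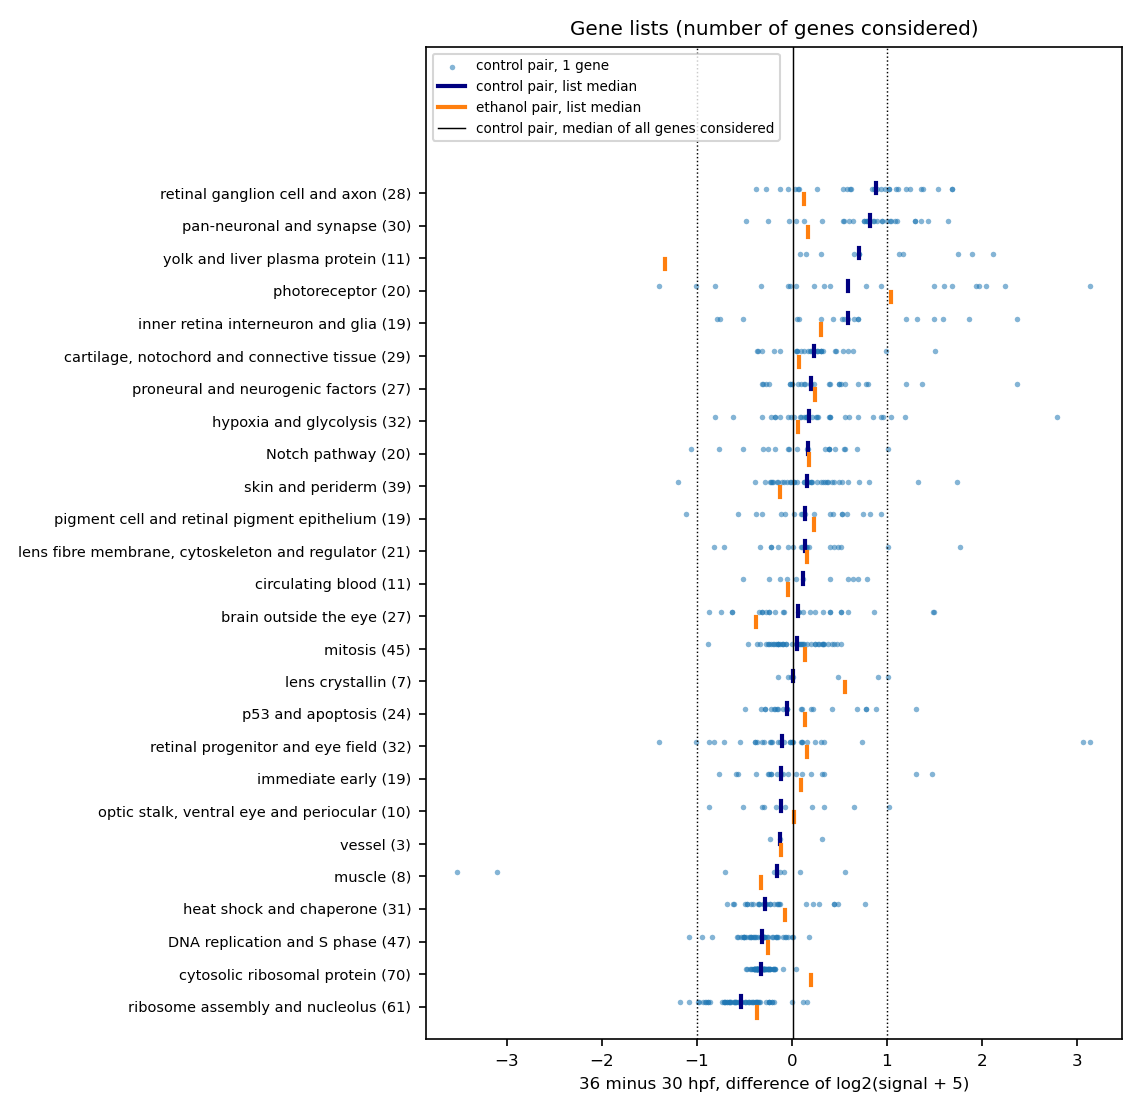
Differences in log2(signal + 5) between 36 and 30 hpf for the members of each list that passed the brightness rule in the control pair, 1 point per gene, with list medians of the control pair (dark blue, upper) and of the ethanol pair (orange, lower). Dotted lines mark 2-fold. Among these members ganglion cell and pan-neuronal genes have the highest control medians (0.88 and 0.83) and ribosome assembly genes the lowest (-0.53).

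Growth and replication genes made up the broadest set of lower values. Genes of ribosome assembly and the nucleolus had the lowest median of the 26 lists, -0.53, with 58 of 61 below 0, against 48.5% of all genes. Of the 61, 2 were at least 2-fold lower, against 0.382% of all genes. The RNA helicase gene ddx52 had a signal of 78.0 in 36 hpf control eyes and 182.7 in 30 hpf control eyes (-1.18), and rcl1, of the small subunit processome, had 299.2 at 36 hpf and 639.0 at 30 hpf (-1.08). The helicase gene dhx37 and the RNA polymerase I factor gene taf1a, which the list did not hold, both had differences of -1.13. This shift kept its direction in every setting run, with a list median of -0.66 after median centring, -0.55 after quantile normalization, -0.90 with the 36 hpf array marked untreated and -0.97 against the 27 hpf control.

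DNA replication genes were lower in 45 of 47 cases (against 48.5% of all genes), with a median of -0.32. Only 1, the GINS complex gene gins1, was at least 2-fold lower by its brightest probe set (against 0.382% of all genes). Its signal was 123.4 in 36 hpf control eyes and 267.3 in 30 hpf control eyes (-1.08). The helicase subunit gene mcm6 had 36.9 at 36 hpf and 75.5 at 30 hpf (-0.94), and the licensing inhibitor gene gmnn had 144.6 at 36 hpf and 262.2 at 30 hpf (-0.84). Of these mcm6 passed only through the 30 hpf array, so its direction followed from the brightness rule. Mitosis genes did not share this shift: 24 of 45 lay above 0 (against 51.4% of all genes), with a median of 0.05 that became -0.07 after median centring. The nucleotide-cleaning enzyme gene dctpp1, outside the lists, read 130.9 at 36 hpf and 379.4 at 30 hpf (-1.50).

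Cytosolic ribosomal protein genes lay below 0 in 69 of 70 cases, against 48.5% of all genes. Their median was -0.33 as deposited and -0.45 after median centring. However, it was -0.01 after quantile normalization, 0.00 with the 36 hpf array marked untreated and 0.21 in the ethanol pair. Of these genes 69 were in the brightest 10% of the probe sets considered.

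Pigment genes had a median difference of 0.14. Of 19 that passed 13 lay above 0 (against 51.4% of all genes), and the melanin synthesis gene dct read 1418 at 36 hpf and 1288 at 30 hpf. Higher members included otx2b, at 809.3 in 36 hpf control eyes and 418.8 in 30 hpf control eyes (0.94), rgrb (0.83) and atp6ap2 (0.75). The single gene of the 19 at least 2-fold lower (against 0.382% of all genes) was gch2, which makes the pteridine precursor of yellow pigment cells. It had 163.1 at 36 hpf and 358.1 at 30 hpf (-1.11). Its 27 hpf control value was 118.8, so against that array its difference was 0.44. The retinoid carrier gene crabp1a, outside the lists, had 111.9 at 36 hpf and 23.3 at 30 hpf (2.05), and ndrg1b, an N-myc downstream regulated gene, had 107.6 at 36 hpf and 11.2 at 30 hpf (2.80). Both crabp1a and ndrg1b passed only through the 36 hpf array, so their direction followed from the brightness rule. Of the 32 hypoxia and glycolysis genes among which ndrg1b was counted, 3 were at least 2-fold higher (against 2.18% of all genes), with a list median of 0.19.

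Genes of other tissues differed between the arrays too. The 3 largest lower differences were the heart muscle genes myl7, cmlc1 and tnnt2a, with signals of 11.4, 12.6 and 10.3 in 36 hpf control eyes and 183.9, 192.8 and 126.5 in 30 hpf control eyes (-3.52, -3.49 and -3.11). All 3 passed only through the 30 hpf array, so their direction followed from the brightness rule. The untreated series of myl7 read 494.8, 313.5, 183.9, 11.4 and 48.8 at 24, 27, 30, 36 and 48 hpf, and the 36 hpf ethanol array read 163.7. Skeletal muscle genes ckma and mylpfa were near background, at 7.93 and 4.30 at 36 hpf and 13.2 and 5.28 at 30 hpf. Of 8 genes of the muscle list that passed, 6 lay below 0 (against 48.5% of all genes) and 2 above, with a median of -0.155. The 2 at least 2-fold lower (against 0.382%) were myl7 and tnnt2a, since the list did not hold cmlc1. The actin gene actc1a was also lower, at 89.7 at 36 hpf and 149.1 at 30 hpf (-0.70). The muscle markers actc1b and mb were bright and not lower, at 116.0 and 344.0 at 36 hpf and 109.1 and 231.3 at 30 hpf (0.085 and 0.56). The summed signal of 55 muscle genes was 1343 in 36 hpf control eyes and 1579 in 30 hpf control eyes. Of 35 measured genes of yolk and liver plasma proteins 11 passed, all above 0, with 5 at least 2-fold higher (against 2.18% of all genes). Members such as apoc1 and apobb.1 passed only through the 36 hpf array, so their direction followed from the brightness rule. The median was 0.71 for the 11 and 0.33 over all 35. The summed signal of the 35 was 2649 in 36 hpf control eyes and 1729 in 30 hpf control eyes, the lowest value of the 9 arrays. The highest was 6243 in 30 hpf ethanol eyes. The apolipoprotein gene apoc1 read 155.0 at 36 hpf and 31.8 at 30 hpf (2.12), after 460.5 and 216.4 at 24 and 27 hpf. The amount of adhering heart or yolk tissue was not tested as a cause of these values.

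Blood, skin and connective tissue lists had medians of 0.11, 0.16 and 0.24, with 24 of 29 connective tissue genes above 0 (against 51.4% of all genes). The summed signals of these lists were 4151, 20920 and 11010 in 36 hpf control eyes and 3623, 19960 and 9295 in 30 hpf control eyes. The cartilage and notochord collagen gene col2a1a, also made in the eye, was at least 2-fold higher, with 328.6 at 36 hpf and 111.9 at 30 hpf (1.51). Among skin keratins krt1-19e was higher (1340 at 36 hpf and 529.3 at 30 hpf) and krt1-19d lower (167.3 at 36 hpf and 391.7 at 30 hpf). The labelled tissue was borne by its own markers on both arrays, with pax6b, dct, six3b, crybb1, atoh7 and isl1a all above the array medians. The eye markers rx1 and six6a were dimmer. They lay below the array median in 36 hpf control eyes, at 17.2 and 38.6, and above it in 30 hpf control eyes, at 39.5 and 46.1.

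**Figure D4:**
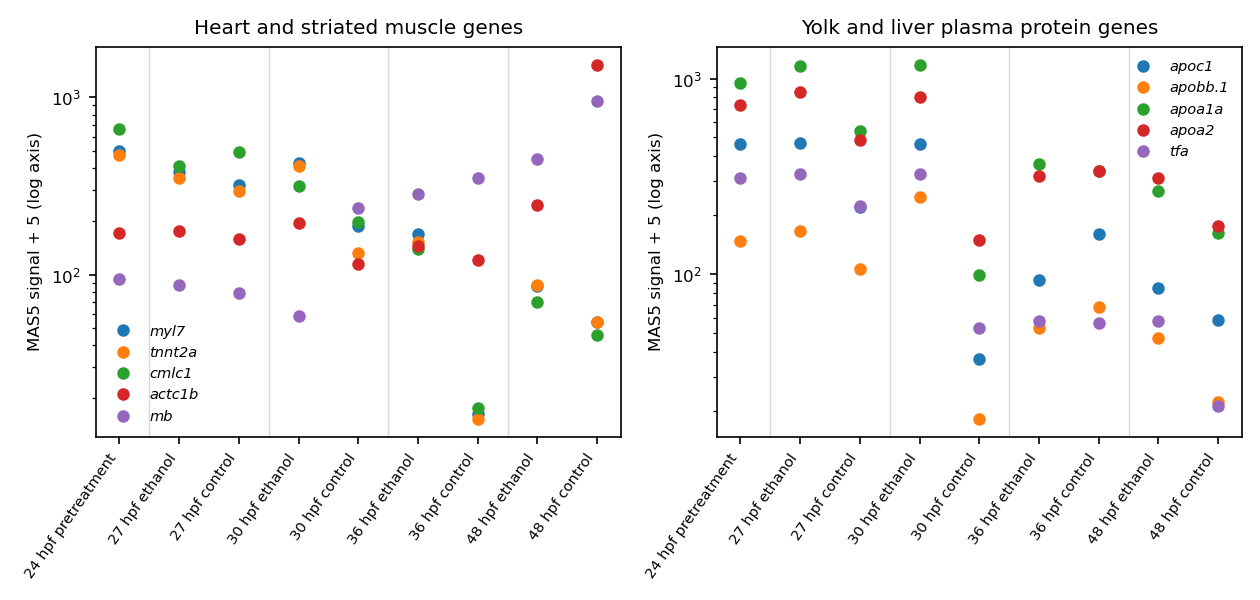
Signal + 5 (log axis) of muscle genes (left) and yolk and liver plasma protein genes (right) on all 9 arrays, 1 point per array. The heart genes myl7, tnnt2a and cmlc1 are lowest in 36 hpf control eyes, and the apolipoprotein genes are higher in 36 hpf control eyes than in 30 hpf control eyes.

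The ethanol-exposed eyes of the same stages share no array with the control pair and show which differences recurred. Among the 8099 probe sets, 84 (1.04%) were at least 2-fold higher at 36 hpf in ethanol eyes and 46 (0.568%) lower. By the rule applied to the ethanol arrays themselves there were 87 higher and 63 lower. Of the 186 higher in the control pair, 40 were at least 2-fold higher in the ethanol pair, which is 21.5% of the first list and 46.0% of the second. In all, 152 of the 186 (81.7%) lay above 0 in the ethanol pair, against 48.4% of all probe sets considered. Of the 41 lower, 13 were at least 2-fold lower in ethanol eyes, 31.7% of the first list and 20.6% of the second, and 32 of the 41 (78.0%) lay below 0, against 51.6%.

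Photoreceptor and crystallin genes had higher medians in the ethanol pair, and axon genes lower. Medians of the photoreceptor list were 1.04 in the ethanol pair beside 0.60 in the control pair. Those of the 7 genes of the crystallin list were 0.56 in the ethanol pair beside 0.01 in the control pair, the values of cryba4 and crybg1a. The brightest 10% of the probe sets considered, 3 of the 7 among them, had medians of 0.076 in the ethanol pair and -0.175 in the control pair. Medians of the ganglion cell and axon list were 0.12 in the ethanol pair beside 0.88 in the control pair, and those of the pan-neuronal list 0.17 beside 0.83. The list of brain outside the eye had a median of -0.38 in the ethanol pair, with 22 of 27 genes below 0, beside 0.06 in the control pair. The part of brain tissue in these medians was not tested. For gap43 the ethanol arrays read 173.2 at 36 hpf and 155.2 at 30 hpf, so the pairs differed mainly in the 30 hpf array. For atoh7 the ethanol arrays read 571.2 at 36 hpf and 142.5 at 30 hpf (1.97). For cryaa they read 213.7 at 36 hpf and 49.9 at 30 hpf (1.99), and for meis2b 81.1 at 36 hpf and 62.6 at 30 hpf (0.35). These differences between the pairs were not tested.

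**Figure D5:**
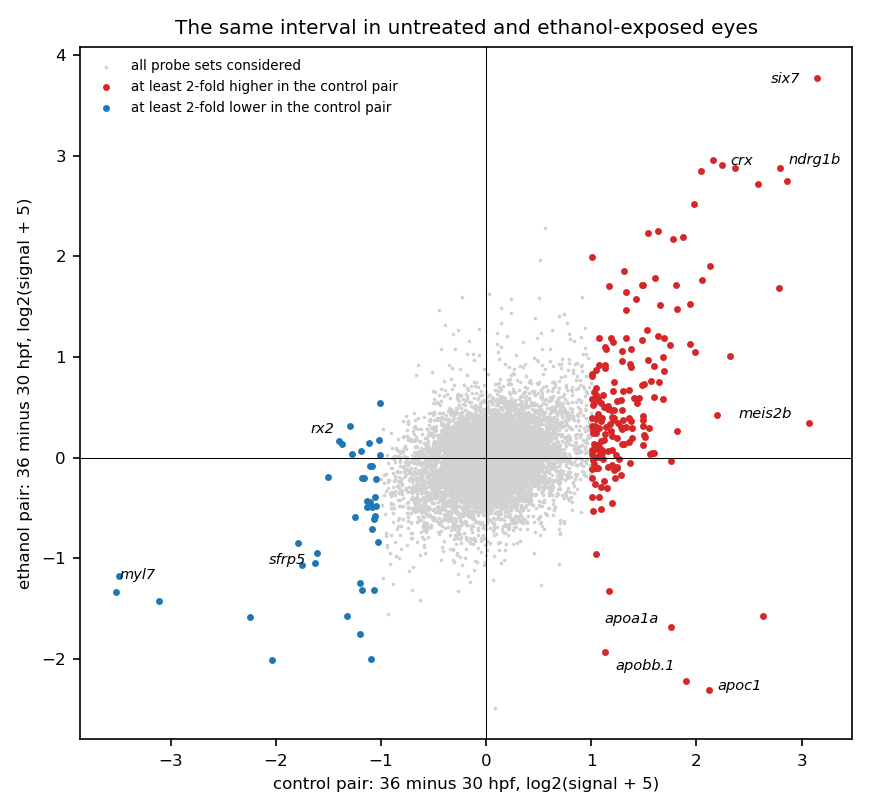
Difference in log2(signal + 5) between 36 and 30 hpf in ethanol eyes (vertical) against that in control eyes (horizontal) for the 8099 probe sets considered, 1 array per group. Red points are at least 2-fold higher and blue points at least 2-fold lower in the control pair. The genes six7, crx and ndrg1b stand high in both pairs, and apolipoprotein genes are high in the control pair and low in the ethanol pair.

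A limma model with stage and ethanol terms over all 9 arrays estimated the mean of the control and ethanol differences of 36 over 30 hpf. It did not test whether the 2 pairs had the same difference. The model has 3 residual degrees of freedom and takes ethanol to add the same shift at every stage. The control and ethanol arrays of a stage stand in for replicates. Its error is therefore departure from that constant shift, not a spread between replicate arrays. Of 9301 probe sets, 21 (0.226%) rose at a Benjamini-Hochberg adjusted p under 0.05 and 0 fell, with 513 higher and 384 lower at an unadjusted p under 0.05. The smallest adjusted p was that of ndrg1b, with a difference of 2.84 ± 0.18 (SE; limma, adjusted p = 0.00134), followed by six7 at 3.46 ± 0.27 (SE; limma, adjusted p = 0.00229). Of the eye genes, lctla (2.56), vsx1 (2.03), crx (2.58) and nr2e3 (2.25) rose with a limma adjusted p of 0.00299 each, and crabp1a (2.45), bfsp2 (1.97) and ptf1a (2.62) with 0.00328 each. The cone receptor gene thrb (1.69, limma adjusted p = 0.0152), the lens gene plaat1 (1.94, 0.0228), the cytoskeletal gene septin4a (1.88, 0.00805) and the chemokine receptor gene cxcr4b (1.49, 0.0494) also rose. By list, 4 of 22 photoreceptor genes in the model rose, 2 of 22 inner retina genes, 1 of 31 proneural genes and 1 of 26 lens fibre genes. Over all genes in the model, 16 of 6111 rose. None of 31 ganglion cell and axon genes and none of 34 pan-neuronal genes passed by limma, with 12 and 10 of them higher at an unadjusted p under 0.05. At that unadjusted limit 294 of all 6111 genes in the model were higher and 274 lower. None of the 61 ribosome assembly genes passed, with 31 lower at an unadjusted p under 0.05 and a median of -0.44. For isl1a the difference was 1.27 ± 0.22 (SE; limma, adjusted p = 0.0847).

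The count of 21 rested on the titles. With the control and ethanol titles at 36 hpf exchanged, 7 probe sets rose, and with the ethanol term taken from the treatment field 3 rose. In both of these six7 and ndrg1b passed, with limma adjusted p-values of 0.0135 and 0.0109 in the first and 0.0260 each in the second, while vsx1 had 0.232 and 0.556, nr2e3 0.307 and 0.683, bfsp2 0.0802 and 0.189, and crx 0.0437 and 0.147. With the treatment field the p of ptf1a was 0.0776, of lctla 0.140, of crabp1a 0.107, of septin4a 0.194, of thrb 0.683, of plaat1 0.856 and of cxcr4b 0.935. Some calls also rested on the scaling. After quantile normalization the limma adjusted p was 0.0602 for thrb, 0.0933 for plaat1 and 0.120 for cxcr4b, while the other genes of this paragraph stayed under 0.05. For cxcr4b it was 0.0707 with a pseudocount of 1 and 0.0875 with no brightness filter.

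Placed in the untreated series, 179 of the 186 higher probe sets stood above all 3 earlier untreated arrays at 36 hpf, and 152 were higher still at 48 hpf. In 79 of them, however, the 30 hpf array lay below both the 24 and the 27 hpf array. Of the 41 lower, 39 stood below all 3 earlier arrays, 25 were lower still at 48 hpf, and in 17 the 30 hpf array lay above both earlier ones. Near the 2-fold line, 52 higher probe sets lay within 0.1 above it and 69 within 0.1 below it, and 14 lower ones lay within 0.1 past it and 32 within 0.1 short of it.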

How the data were processed

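The authors deposited 1 table of MAS5 signal intensity per probe set and array, per the submitters' processing notes and the values. Each array has a trimmed mean of 125.021 to 125.024 (2% cut from each end), so the deposited intensities are scaled to a common mean. Background steps and detection calls are not used here. The 115 manufacturer's control probe sets were left out. Of the other 15502, 10795 had 1 gene symbol, 135 several and 4572 none, and 10711 symbols were updated through gene identifiers. The brightest probe set over 9 arrays stood for each of 8793 genes. Among named genes, smc2 had another bright probe set of opposite direction and is not discussed.

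Differences are of log2(signal + 5), computed in Python 3.11.15 with pandas 2.3.3. The model was fitted in R 4.3.3 with limma 3.58.1 on probe sets in the upper 60% by mean, tested on simulated data, with Benjamini-Hochberg adjustment. Nothing says that arrays of 1 stage came from separate clutches, and the number of arrays limits the precision.

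Genes were named by rule: the 12 largest differences each way, the 5 of smallest p in the model, 4 members per list (8 for the main eye lists) and defining markers. Other members named, and second probe sets, were chosen after their values were seen. The members and lists were chosen with earlier results of these data known. Alternatives were pseudocounts of 1 and 20, median centring, quantile normalization, other brightness filters, other arrays for the labels, and models without a stage.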

Additional observations from a re-analysis of the deposited data

Results flagged for a closer look

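For 4 apolipoprotein genes, which code for lipid carriers made in yolk and liver, the difference of 36 over 30 hpf ran in opposite directions in the ethanol and the control pair, each with 1 array per stage, and the difference was not tested. The difference of apoc1 was -2.31 in the ethanol pair and 2.12 in the control pair, and that of apobb.1 was -2.22 in the ethanol pair and 1.90 in the control pair. For apoa1a the values were -1.69 in the ethanol pair and 1.75 in the control pair, and for apoa2 -1.33 in the ethanol pair and 1.17 in the control pair. The signals of apoc1 were 88.5 at 36 hpf and 458.4 at 30 hpf in ethanol eyes, and 155.0 at 36 hpf and 31.8 at 30 hpf in control eyes. Across the 227 probe sets at least 2-fold different in the control pair, 6 were at least 2-fold different the opposite way in the ethanol pair. Their cause was not tested.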

How the results depend on the processing

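Of the control pair's counts, the 186 higher were 100 with a pseudocount of 20, 107 with both arrays above their median, 353 with the 36 hpf array marked untreated, 102 with all arrays marked untreated (their mean at 30 hpf) and 331 against the 27 hpf control. The 41 lower were 21, 28, 103, 20 and 238 under the same settings, 88 after median centring, which moved the median of all probe sets to -0.09, against 0.04 as deposited, and 75 with no brightness filter. The model's 21 higher were 33 after median centring, 14 after quantile normalization and 6 in the upper 30% of probe sets. They were 37 without the 48 hpf arrays, 39 with a mean-dependent prior, 7 with the 36 hpf titles exchanged and 3 with the treatment field. The model's 0 lower were 1 with a pseudocount of 20, 5 after centring, 1 without the 27 hpf arrays, 3 without the 48 hpf arrays and 4 with the mean-dependent prior.

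Of the named genes at least 2-fold different in the control pair, 7 changed sign in a setting whose brightness filter they passed. Each did so only with other arrays in place and none with another pseudocount, scaling or brightness filter. A gene too dim for a setting was not counted in it. Such a gene was rx1 with all arrays marked untreated, where the 36 hpf array read 35.9, below its median of 42.9. Against the 27 hpf control gch2 was 0.44, apoc1 -0.47, apobb.1 -0.64, apoa1a -0.69 and apoa2 -0.52. With all arrays marked untreated apoc1 was -0.48, apobb.1 -0.33, apoa2 -0.12 and ppp1r3b 0.13. With the 36 hpf array marked untreated tnnt2a was 0.21 and ppp1r3b, a glycogen phosphatase subunit gene at -1.11 in the control pair, was 0.36. The cause was not tested. Over all settings run, limma adjusted p ranged from 0.000398 up to 0.0260 for six7, 0.00051 to 0.0260 for ndrg1b, 0.000792 to 0.556 for vsx1, 0.00121 to 0.683 for nr2e3, 0.00112 to 0.189 for bfsp2 and 0.000833 to 0.147 for crx. The settings with the 27 hpf control and with all arrays marked untreated, and both relabelled models, were chosen after seeing the data. No paired analysis was possible because each group has 1 array.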

Other observations

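Heat shock and chaperone genes of the control pair were mostly lower at 36 hpf, with 24 of 31 below 0 (against 48.5% of all genes). Their median was -0.28, or -0.17 after quantile normalization, and -0.07 in the ethanol pair. Of the 31, 14 were in the brightest 10% of the probe sets considered, whose median was -0.18 as deposited. The mitochondrial chaperone gene hspd1 read 503.2 in 36 hpf control eyes and 771.1 in 30 hpf control eyes (-0.61). The inducible gene hsp70.3 ran the other way, with 324.7 at 36 hpf and 188.5 at 30 hpf (0.77), and read 24.8, 53.8, 188.5, 324.7 and 525.4 at 24, 27, 30, 36 and 48 hpf in the untreated series. Of the immediate early genes the antiproliferative gene btg1 had 639.3 at 36 hpf and 226.3 at 30 hpf (1.48), and of the p53 and apoptosis genes gadd45ba had 67.4 at 36 hpf and 24.3 at 30 hpf (1.31). The gene gadd45ba passed only through the 36 hpf array, so its direction followed from the brightness rule.

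The matrix protein gene aebp1b was among the largest higher differences of the control pair, at 99.6 in 36 hpf control eyes and 17.8 in 30 hpf control eyes (2.20), but read 31.6 at 36 hpf and 22.3 at 30 hpf in ethanol eyes (0.42). In the control pair aebp1b passed only through the 36 hpf array, so its direction followed from the brightness rule. The skin and mucus gene agr2 had 166.7 at 36 hpf and 46.3 at 30 hpf in control eyes (1.75), and 166.5 at 36 hpf and 74.0 at 30 hpf in ethanol eyes (1.12).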
